A study of Arabidopsis thaliana with 12 samples.

Results

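The SAUR genes (SMALL AUXIN UP RNA) are a large family of short auxin-induced genes, many of which lie beside each other on the Arabidopsis thaliana chromosomes. A list of 51 SAUR loci was followed over 4 treatments, chosen by locus identifier and grouped by neighbouring locus numbers. These 51 were among 29030 loci on the array, and 50 of them were among the 23534 loci that could be tested. In the RefSeq gene table each of the 51 carries a SAUR number as symbol or synonym. Of the 51 loci, 33 fell into 7 clusters, defined as runs in which successive locus numbers differ by at most 50, and 18 had no other listed locus that close.

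Transcripts were measured on 12 single-colour Agilent arrays from whole seedlings of the wild type Col-0, with 3 arrays for each treatment. Seeds were sown on medium that held DMSO (dimethyl sulfoxide, the solvent) or, at 2.5 µM, 1 of 3 indazoles: 3-bromo-7-nitroindazole, written 3B7N, its analog 3-bromoindazole, written 3BRO, or its analog 7-nitroindazole, written 7NIT. They spent 3 days cold and dark, followed by 4 days in blue light that was on without a break, at a fluence rate of 10 µmol m-2 s-1. 3B7N carries both a bromo and a nitro group on the indazole ring, 3BRO has the bromo group without the nitro group, and 7NIT has the nitro group without the bromo group. The title of the series names hypocotyl elongation under blue light as its subject, and a cry1cry2 genotype named in its design text was not analysed here. Separate cultures behind the 3 arrays of a group are not mentioned in the labels, so a p-value here reflects the spread among those arrays, which could be technical.

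As background, auxin acts through TIR1/AFB receptors and auxin response factors, and many SAUR genes are among the fastest targets of this pathway. Several SAUR proteins bind and inhibit type 2C phosphatases of clade D, which otherwise dephosphorylate and switch off the plasma membrane proton pumps, so that the cell wall is acidified and the cell expands. In seedlings some SAUR genes promote hypocotyl elongation, whereas others, such as SAUR14, SAUR16 and SAUR50, are induced by light in cotyledons and take part in their opening.

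Levels below are log2 processed signals relative to the 75th percentile of the same array, so that 0 is a signal equal to that percentile. They compare arrays for 1 probe and do not rank genes by transcript amount. A member is said to have risen or fallen if its change had an adjusted p under 0.05 in limma, with Benjamini-Hochberg adjustment over the 23534 loci. Neighbouring SAUR copies are near-identical in parts, and how far a probe also binds transcripts of neighbouring copies was not computed here, so values of single clustered members are uncertain. In whole seedlings, fewer cells of a type and less RNA per cell cannot be told apart.

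The arrays lay on 3 slides. Slide 1 held the 3 DMSO arrays and 3BRO replicate 1, slide 2 held 3BRO replicates 2 and 3 with 3B7N replicates 1 and 2, and slide 3 held the 3 7NIT arrays with 3B7N replicate 3. Slide 1 was scanned on 1 day and slides 2 and 3 on another. No 3B7N or 7NIT array shared a slide with DMSO. The share of spots well above background ran from 77.1% (DMSO replicate 3) to 84.6% (7NIT replicate 2) of the array, and no spot was saturated. Before scaling, the 75th percentile of the signal differed between groups. It was 1768 to 2205 with DMSO, 2366 to 2920 with 3BRO, 2770 to 3472 with 7NIT and 3318 to 3761 with 3B7N. As a check of the labelled material, 8 root genes and 8 genes of green leaf and cotyledon were all well above background on all 12 arrays.

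None of the 50 tested members rose or fell with 3BRO or with 7NIT against DMSO in limma. Without adjustment, 0 members had a p under 0.05 with 3BRO, against 3.76% of all loci, and 1 did with 7NIT, against 7.90% of all loci. After adjustment, 0.00425% of all loci passed with 3BRO and 0.0255% with 7NIT. The member with an unadjusted p under 0.05 was SAUR32 (AT2G46690), at -0.63. Between 7NIT and 3BRO 0 members passed in limma, against 0.0212% of all loci, and 1 had an unadjusted p under 0.05, again SAUR32, against 9.35%. The median log2 difference of the members was -0.08 with 3BRO and -0.11 with 7NIT, beside medians of -0.02 and 0.03 over all loci. A p that misses the threshold does not show that these members did not respond, and for SAUR22 the 95% confidence interval with 3BRO still ran from -0.86 to 1.00. When slide entered the fit as a block, 14 members had an unadjusted p under 0.05 in 7NIT against DMSO, all 14 lower, beside 14.4% of all loci, and 0 passed after adjustment. In that fit the link from 7NIT to DMSO runs through 3B7N replicate 3 on slide 3 and 3BRO replicate 1 on slide 1. Each is a single array, so these 14 values rest on them.

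With 3B7N, 6 of the 50 members rose and 5 fell against DMSO. Over all loci, 5.49% rose and 10.2% fell, 15.7% in either direction. The members that rose were SAUR25, AT1G29490, SAUR11, SAUR9, SAUR10 and SAUR30, and those that fell were SAUR31, SAUR6, SAUR72, SAUR14 and SAUR59. Of these 11, 8 were among the 18 single loci. Of the 32 tested loci in clusters, 1 rose (AT1G29490) and 2 fell (SAUR6 and SAUR14). AT1G29490 could be tested only because its probe was well above background on all 3B7N arrays, so its rise is partly built in. Over all 50 members, 29 changes were above 0, beside 48.5% of all loci. Median changes were 0.17 for the single loci, 0.24 for the clustered loci and -0.02 for all loci. The 3B7N arrays stood above all 9 others in 7 members, beside 6.39% of all loci, and below all 9 others in 4, beside 10.1% of all loci. The count of 11 calls was 6 without DMSO replicate 1 and 6 without DMSO replicate 2. When DMSO and 3B7N were fitted alone it was 7, SAUR10, SAUR6, SAUR72 and SAUR59 no longer passing. After normexp background correction it was 5, made up of SAUR9, SAUR30, SAUR31, SAUR72 and SAUR14.

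That count changed when slide or scan day entered the fit. When slide entered the fit as a block, 0 members passed in 3B7N against DMSO in limma, although 3.28% of all loci still did. Without adjustment 11 members had a p under 0.05 in that fit, beside 19.6% of all loci. With scan day as the block, 0 members and 2.60% of all loci passed, and 9 members had an unadjusted p under 0.05, beside 18.7% of all loci. In both blocked fits the link from 3B7N to DMSO runs through 3BRO replicate 1, the single array other than DMSO on slide 1. With slide as the block some changes moved little as their calls ended, such as SAUR14 from -0.99 to -1.01. Others moved far, such as SAUR59 from -0.60 to -0.06. Within-slide values exist for slide 2, where 2 3B7N arrays meet 2 3BRO arrays, and for slide 3, where 1 3B7N array meets 3 7NIT arrays. Over all 50 members, 20 were higher with 3B7N on slide 2 and 38 on slide 3. No share over all loci is given beside these counts, and on slide 3 3B7N is replicate 3 alone. The 6 members that rose were higher with 3B7N by 0.87 to 3.12 on slide 2 and by 1.14 to 4.75 on slide 3, and the 5 that fell were lower, by -1.25 to -0.19 and by -1.89 to -0.52. These values describe members already chosen as called on the same 3B7N arrays, so their shared sign is partly built in and is no separate support for the calls. Whether slide has a part in them was not tested.

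**Figure D1:**
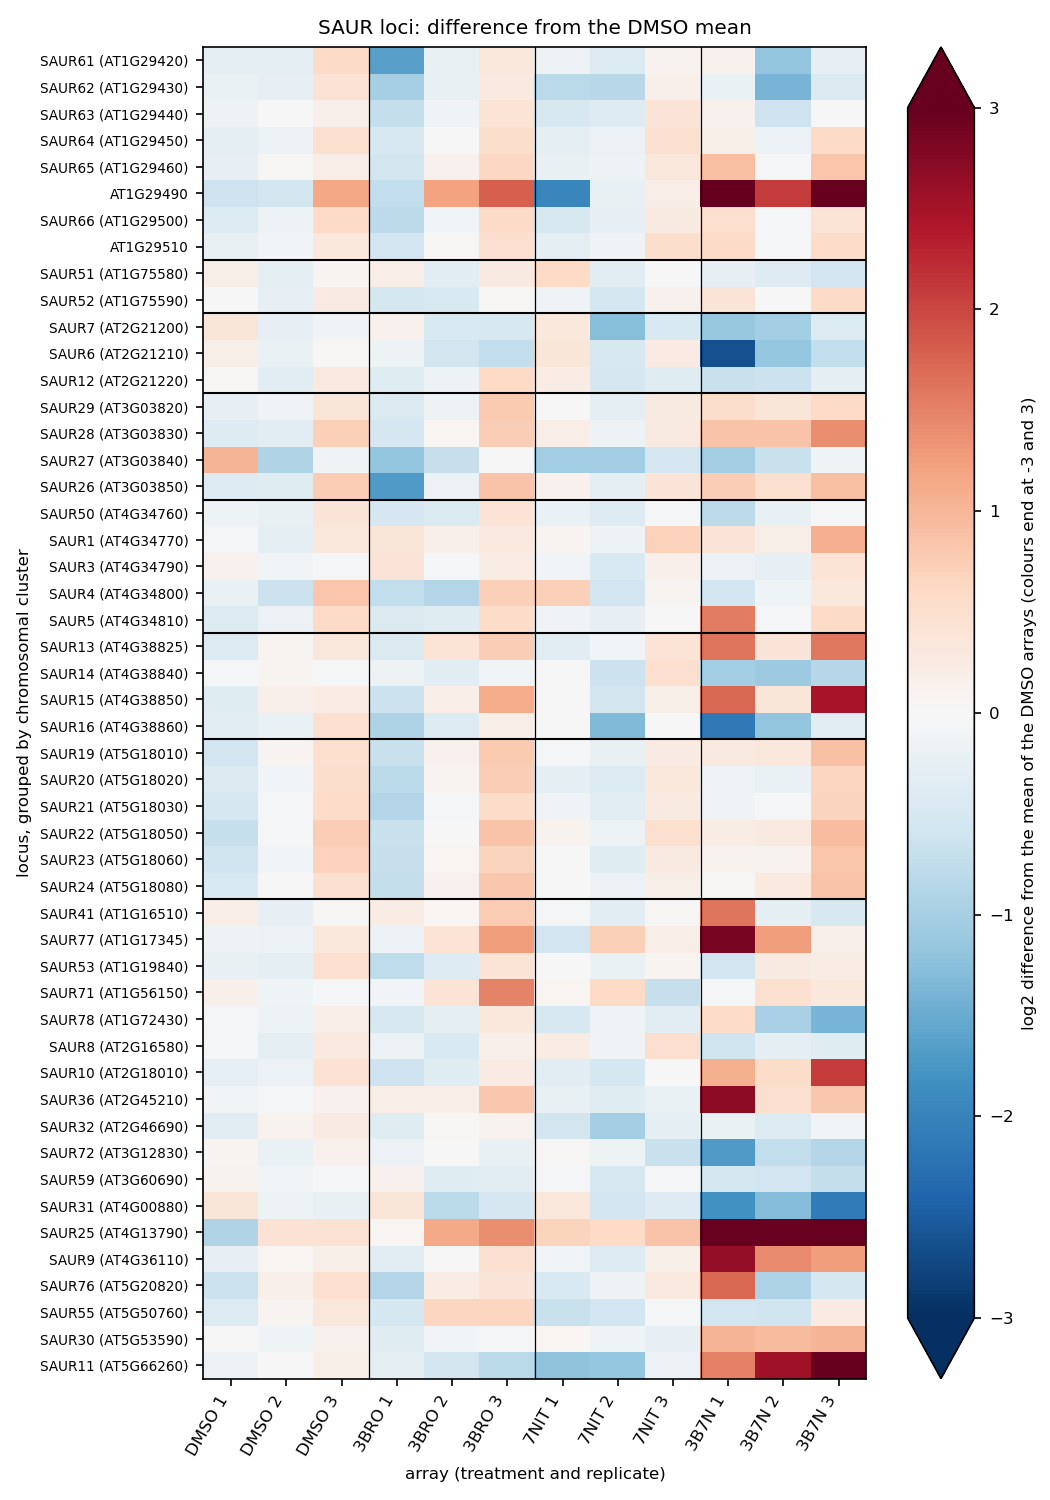
Log2 difference of each of the 50 tested SAUR loci (rows, grouped by cluster, single loci at the bottom) from the mean of the DMSO arrays on each of the 12 arrays (columns), with colours ending at -3 and 3. The large differences stand in the 3B7N columns and mostly among the single loci, while the 6 loci from AT5G18010 to AT5G18080 shade together from array to array.

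Among the single loci, the member with the largest change was SAUR25 (AT4G13790). Its level was -8.62, -7.29 and -7.26 on the DMSO arrays, -7.67, -6.59 and -6.34 with 3BRO, -7.04, -7.13 and -6.87 with 7NIT, and -2.39, -4.30 and -2.27 with 3B7N. The 3B7N arrays stood above the other 9 without overlap. The log2 change against DMSO was 4.74 ± 0.56 (SE, n = 3), adjusted p = 0.00063. A second probe of the locus, well above background on 4 arrays, differed by 4.47. To be tested, a probe had to be well above background on every array of some group, and this probe can have met that in a single group only. Its difference is therefore no separate support. The probe used for SAUR25 was well above background on 2 of the 3 DMSO arrays and on all arrays of the other groups. The size of the change therefore rests on signals near background for both probes. It rose by 3.88 against 3BRO (adjusted p = 0.0038) and by 4.03 against 7NIT (adjusted p = 0.0013). Normexp ended all 3 SAUR25 calls, with changes of 2.18 against DMSO (adjusted p = 0.078), 2.22 against 3BRO (adjusted p = 0.11) and 1.66 against 7NIT (adjusted p = 0.13). Against DMSO the slide block gave 3.17 with adjusted p = 0.11.

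SAUR11 (AT5G66260) showed the next largest rise of a single locus. Its level was -5.00, -4.84 and -4.65 with DMSO, -5.11, -5.37 and -5.63 with 3BRO, -6.03, -5.99 and -5.00 with 7NIT, and -3.32, -2.28 and -1.56 with 3B7N. Every 3B7N array was above every other array. The change against DMSO was 2.44 ± 0.40 (SE), adjusted p = 0.0031. Against 3BRO it was 2.98 (adjusted p = 0.0031) and against 7NIT 3.28 (adjusted p = 0.00073). Normexp ended all 3 SAUR11 calls, with changes of 1.72 against DMSO (adjusted p = 0.10), 2.17 against 3BRO (adjusted p = 0.074) and 1.87 against 7NIT (adjusted p = 0.063). Against DMSO the slide block gave 2.41 (adjusted p = 0.076). Within slide 2 SAUR11 was 2.69 higher with 3B7N than with 3BRO, and within slide 3 it was 4.11 higher than with 7NIT.

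SAUR30 (AT5G53590) had the smallest standard error of the 11 members that passed. Its level was -0.85, -0.96 and -0.70 with DMSO, -1.20, -0.93 and -0.90 with 3BRO, -0.78, -0.97 and -1.10 with 7NIT, and 0.19, 0.12 and 0.19 with 3B7N. The 3B7N arrays lay within 0.07 of each other and above all 9 others. The change was 1.01 ± 0.13 (SE), adjusted p = 0.0010. It was 1.17 against 3BRO (adjusted p = 0.0013) and 1.11 against 7NIT (adjusted p = 0.00068), and these comparisons passed under each of the 22 alternative settings run. Against DMSO the call ended in both blocked fits, at 0.71 for slide (adjusted p = 0.16) and 0.72 for scan day (adjusted p = 0.13).

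SAUR9 (AT4G36110), whose protein is one of those shown to inhibit clade D phosphatases, measured -3.03, -2.72 and -2.61 with DMSO, -3.13, -2.80 and -2.30 with 3BRO, -2.87, -3.20 and -2.60 with 7NIT, and -0.14, -1.38 and -1.53 with 3B7N. All 3B7N arrays were above the others, with replicate 1 the highest. The change was 1.77 ± 0.35 (SE), adjusted p = 0.0069. A second probe of the locus, well above background on 7 arrays, differed by 1.65. SAUR9 rose by 1.73 against 3BRO (adjusted p = 0.015) and by 1.87 against 7NIT (adjusted p = 0.0049). The call against 3BRO ended without 3BRO replicate 1 (1.53, adjusted p = 0.050) or 3BRO replicate 2 (1.70, adjusted p = 0.053). It also ended under normexp (1.61, adjusted p = 0.057) and with the scan day block (1.53, adjusted p = 0.050). The slide block ended the calls against DMSO (1.45, adjusted p = 0.22) and 7NIT (1.36, adjusted p = 0.10).

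SAUR10 (AT2G18010) measured -4.69, -4.63 and -4.02 with DMSO, -5.08, -4.81 and -4.20 with 3BRO, -4.75, -4.98 and -4.46 with 7NIT, and -3.38, -3.90 and -2.35 with 3B7N. The 3B7N arrays were again above all others, the lowest of them by a margin of 0.12 over DMSO replicate 3. The change was 1.23 ± 0.37 (SE), adjusted p = 0.046. This call was the closest to the threshold: it ended on leaving out 8 of the 12 arrays in turn, namely DMSO replicates 1 and 2, 3BRO replicate 2, any of the 7NIT arrays, and 3B7N replicates 1 and 3, with changes from 0.80 to 1.32 and adjusted p from 0.058 to 0.13. Against 3BRO and 7NIT SAUR10 rose by 1.49 and 1.52 (adjusted p = 0.035 and 0.018). The call against 3BRO ended without DMSO replicate 2, 3BRO replicates 1 or 2, 7NIT replicate 1, or 3B7N replicates 1 or 3, with changes from 1.06 to 1.57 and adjusted p from 0.053 to 0.11. That against 7NIT ended without 7NIT replicate 1 (1.51, adjusted p = 0.061) or 7NIT replicate 2 (1.40, adjusted p = 0.051). Normexp gave SAUR10 changes of 0.75 against DMSO, 0.95 against 3BRO and 0.53 against 7NIT, with adjusted p of 0.43, 0.45 and 0.46. The slide block gave 0.24 against DMSO (adjusted p = 0.82) and 0.87 against 3BRO (adjusted p = 0.15).

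**Figure D2:**
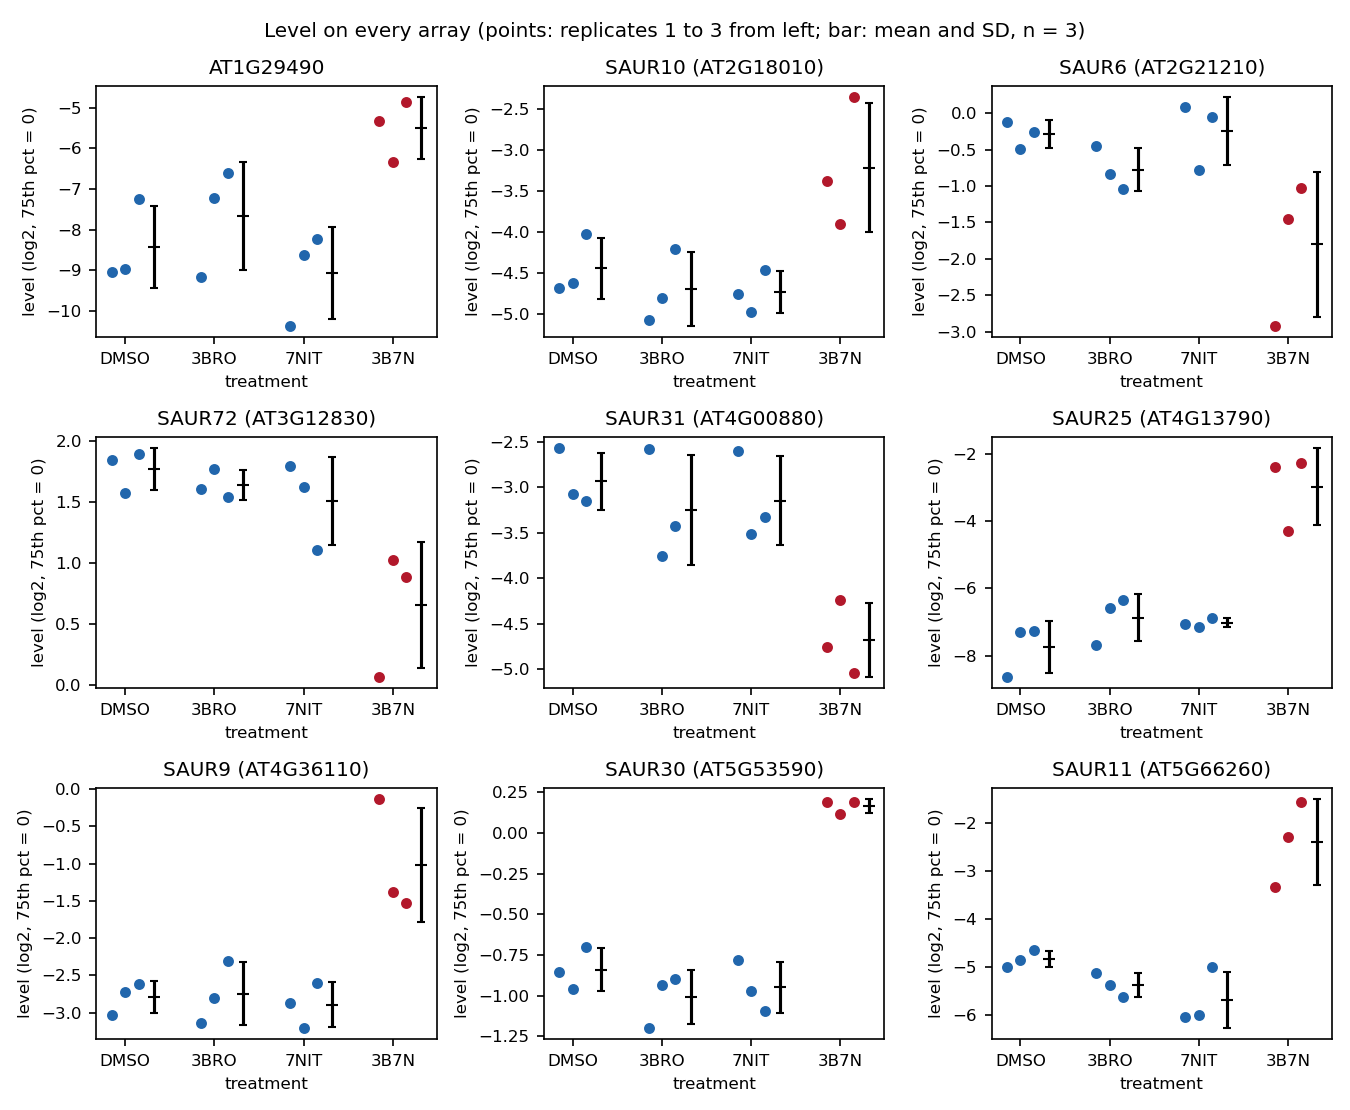
Level of the 9 members whose change against DMSO passed the test with a log2 change of at least 1 (vertical axes, log2 relative to the array's 75th percentile, each panel with its own scale) by treatment. Points are the 3 arrays and the bar is their mean and SD; the 3B7N points (red) stand apart from the DMSO points in all 9 panels.

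Among the single loci, 3 fell. SAUR31 (AT4G00880) measured -2.57, -3.08 and -3.15 with DMSO, -2.58, -3.75 and -3.43 with 3BRO, -2.59, -3.52 and -3.32 with 7NIT, and -4.75, -4.24 and -5.04 with 3B7N. It lay below all other arrays on each 3B7N array, and the change was -1.74 ± 0.34 (SE), adjusted p = 0.0070. SAUR31 also fell against 3BRO (-1.42, adjusted p = 0.031) and against 7NIT (-1.53, adjusted p = 0.012). The call against 3BRO ended without 3BRO replicate 1 (-1.09, adjusted p = 0.086), 3BRO replicate 3 (-1.51, 0.064), 3B7N replicate 1 (-1.39, 0.078) or 3B7N replicate 3 (-1.24, 0.088). The call against 7NIT ended without 7NIT replicate 1 (-1.26, adjusted p = 0.054). In the fit with slide as a block SAUR31 differed by -0.55 against DMSO (adjusted p = 0.58) and by -0.90 against 3BRO (adjusted p = 0.16), and under normexp by -1.17 against 3BRO (adjusted p = 0.088).

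SAUR72 (AT3G12830), a relative of SAUR41, measured 1.84, 1.58 and 1.89 with DMSO, 1.61, 1.78 and 1.54 with 3BRO, 1.80, 1.63 and 1.11 with 7NIT, and 0.07, 1.02 and 0.89 with 3B7N. The 3B7N arrays were below the other 9, and 3B7N replicate 1 was the lowest. The change was -1.11 ± 0.25 (SE), adjusted p = 0.014, and adjusted p = 0.051 without DMSO replicate 1 (-1.08). SAUR72 fell by 0.98 against 3BRO and by 0.85 against 7NIT, each with adjusted p = 0.040. The call against 3BRO ended without any DMSO or 3BRO array, 7NIT replicate 2, or 3B7N replicates 1 or 3, with changes from -1.10 to -0.68 and adjusted p from 0.051 to 0.12. The call against 7NIT ended without DMSO replicate 1, 3BRO replicates 2 or 3, 7NIT replicates 1 or 2, or 3B7N replicates 1 or 3, with changes from -0.97 to -0.56 and adjusted p from 0.051 to 0.15. Normexp ended the calls against 3BRO (-0.94, adjusted p = 0.10) and 7NIT (-0.69, adjusted p = 0.13). The slide block ended all 3, at -1.28 against DMSO, -1.11 against 3BRO and -0.62 against 7NIT, with adjusted p of 0.21, 0.092 and 0.36. SAUR59 (AT3G60690) fell by the smallest amount, -0.60 ± 0.17 (SE), adjusted p = 0.038. Its call ended without any of the 3 DMSO arrays, any of the 3 3B7N arrays or 7NIT replicate 3, with adjusted p from 0.052 to 0.12 and changes from -0.64 to -0.54. The slide block gave -0.06 for SAUR59 (adjusted p = 0.93), and normexp gave -0.61 (adjusted p = 0.067).

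The other 10 single loci did not pass in any comparison with DMSO, and several of them varied with 3B7N replicate 1. SAUR36 (AT2G45210), also described as a promoter of leaf senescence, measured -1.23, -1.20 and -1.02 with DMSO, -1.38, -1.52 and -1.34 with 7NIT, and 1.54, -0.67 and -0.34 with 3B7N. It rose by 1.59 against 7NIT (adjusted p = 0.033), while its change of 1.33 against DMSO had adjusted p = 0.071. The call against 7NIT ended without 7NIT replicate 1, 2 or 3, with changes of 1.61, 1.54 and 1.63 and adjusted p from 0.075 to 0.092. It also ended with slide as a block (1.07, adjusted p = 0.36) and under normexp (1.35, adjusted p = 0.082). SAUR77 (AT1G17345) measured -1.28, -2.85 and -3.96 on the 3B7N arrays, and SAUR76 (AT5G20820) 0.72, -1.93 and -1.54. Both were highest on 3B7N replicate 1, with within-group SDs of 1.35 and 1.43, and their changes against DMSO of 1.42 and 0.09 had adjusted p of 0.14 and 0.93. SAUR78 (AT1G72430), of the same subfamily, measured 4.25, 2.73 and 2.29 with 3B7N and changed by -0.60 (adjusted p = 0.34).

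Among the clusters, the 6 loci from AT5G18010 to AT5G18080 (SAUR19, SAUR20, SAUR21, SAUR22, SAUR23 and SAUR24) are the best studied as promoters of cell expansion. None of them passed in any comparison in limma, and 0 of the 6 had an unadjusted p under 0.05 with 3BRO, 7NIT or 3B7N against DMSO, where 31.1% of all loci did so with 3B7N. All 6 changes with 3B7N against DMSO were above 0, from 0.11 for SAUR20 to 0.49 for SAUR19, with a median of 0.37. SAUR19 (AT5G18010), the member with the largest change of the cluster, measured 0.07, 0.72 and 1.15 with DMSO, -0.02, 0.78 and 1.44 with 3BRO, 0.60, 0.42 and 0.89 with 7NIT, and 0.91, 0.97 and 1.53 with 3B7N. The groups overlapped, and the change of 0.49 against DMSO had adjusted p = 0.38. SAUR22 (AT5G18050), chosen as the member with the highest signal, measured 0.92, 1.60 and 2.35 with DMSO, 0.95, 1.65 and 2.49 with 3BRO, 1.72, 1.47 and 2.11 with 7NIT, and 1.84, 1.88 and 2.55 with 3B7N. Its change of 0.47 had an interval from -0.46 to 1.40 (adjusted p = 0.47).

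The 6 loci of this cluster shifted together from array to array. On each array the 6 differences from the DMSO mean lay within 0.17 to 0.52 of each other, while the median within-group SD of the 6 was 0.52. That median SD was 0.50 over all 50 members, 0.61 for the loci from AT4G38825 to AT4G38860 and 0.25 over all loci. It was thus wider for the listed loci than for all loci, while the SDs of single members ran from 0.13 to 1.08. Replicate 3 was the highest of its group in all 4 treatments for each of the 6 loci. The same held for 3 of the 4 loci from AT3G03820 to AT3G03850, 2 of the 4 from AT4G38825 to AT4G38860, 2 of the 8 from AT1G29420 to AT1G29510, 4 of the 18 single loci and 4.38% of all loci. The median of the 6 differences from the DMSO mean was -0.54, -0.04 and 0.53 on the DMSO arrays, -0.70, 0.06 and 0.76 with 3BRO, -0.03, -0.27 and 0.27 with 7NIT, and 0.06, 0.18 and 0.84 with 3B7N. Because their probes may bind each other's transcripts, the 6 loci are not 6 independent readings.

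The sign of the difference for this cluster was not the same within each slide, and the treatments and replicates compared differ between slides. Within slide 2, the 6 loci were lower with 3B7N than with 3BRO, by -0.56 to -0.17. Within slide 3 they were higher with 3B7N than with 7NIT, by 0.71 to 0.90, where 3B7N is represented by replicate 3 alone. On slide 1 they were lower on 3BRO replicate 1 than the DMSO mean, by -0.87 to -0.66. The slide block turned the median change of the cluster against DMSO from 0.37 to -0.98, and the scan day block to -0.74. Whether slide, treatment or replicate number has a part in these signs was not tested.

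**Figure D3:**
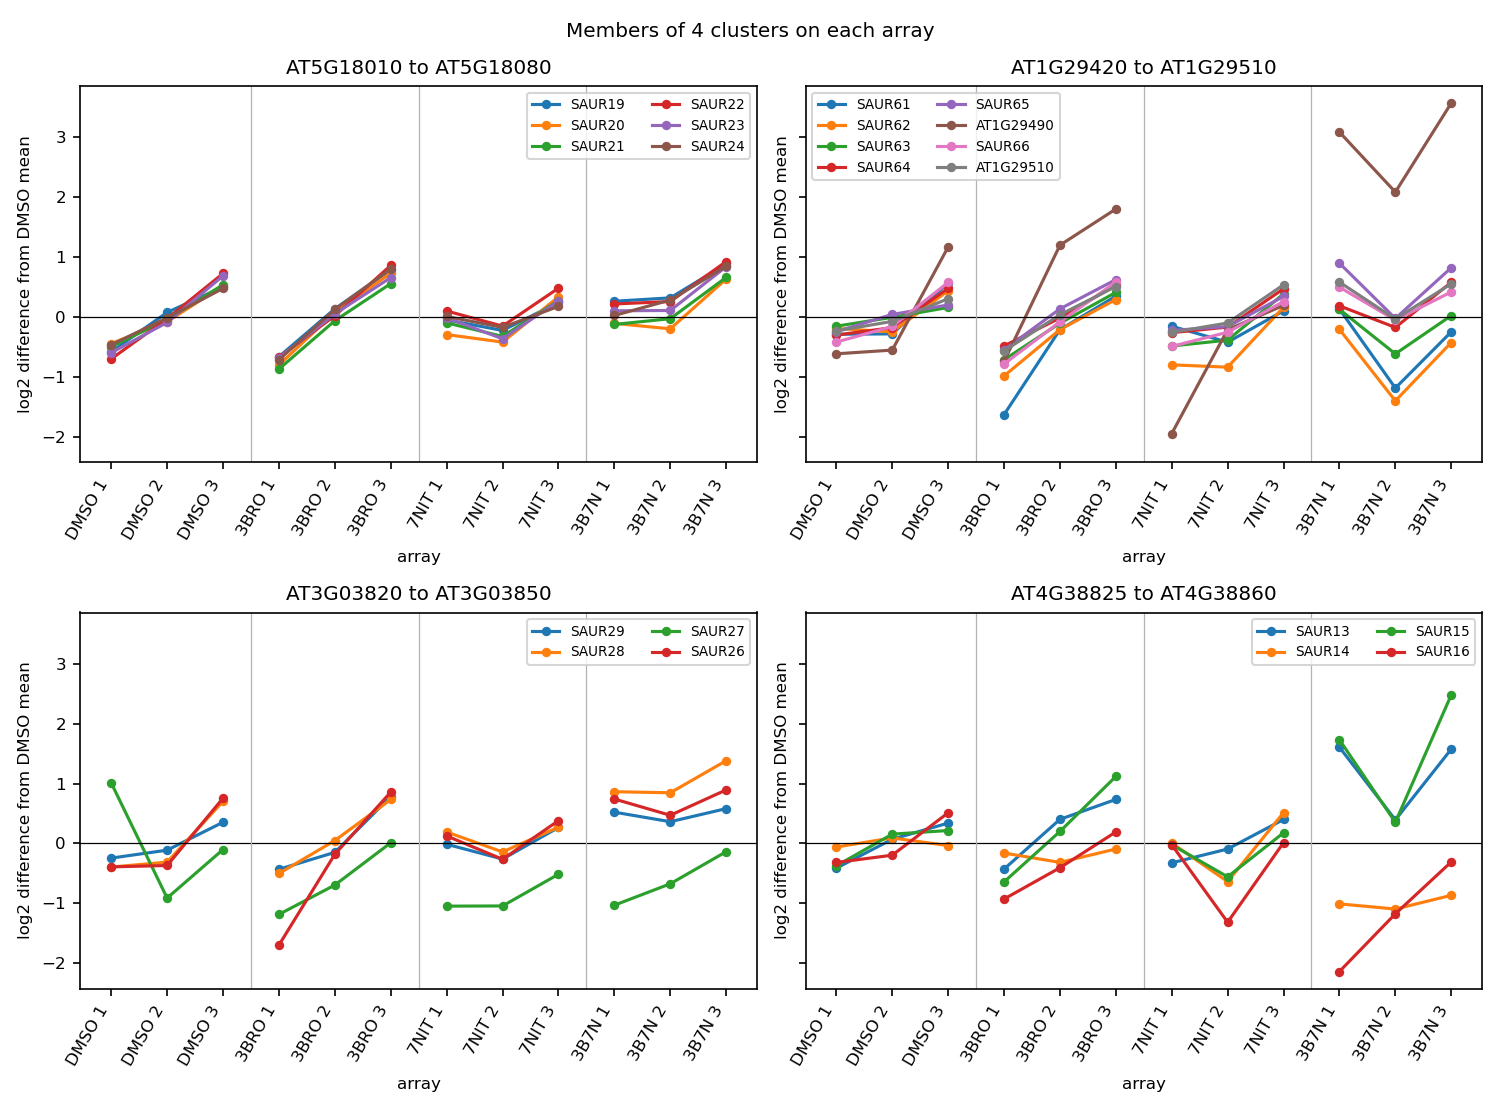
Log2 difference from the DMSO mean (vertical axis) on each of the 12 arrays (horizontal axis) for the members of 4 clusters, 1 colour per locus. Lines join the values of a locus within a treatment for reading and imply no order of replicates; the 6 loci from AT5G18010 to AT5G18080 overlie each other, whereas AT1G29490 leaves its cluster and the loci from AT4G38825 to AT4G38860 part with 3B7N.

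The cluster from AT1G29420 to AT1G29510 holds 8 loci, SAUR61 to SAUR66, AT1G29490 and AT1G29510. The RefSeq table gives the name SAUR68 to both of the last-named loci, so they are called by locus here. This group includes SAUR63, a promoter of hypocotyl and stamen filament elongation. Of the 8, 7 did not pass, with changes against DMSO from -0.68 for SAUR62 to 0.57 for SAUR65. SAUR63 (AT1G29440), chosen as the member with the highest signal, measured 0.08, 0.23 and 0.40 with DMSO, -0.48, 0.13 and 0.65 with 3BRO, -0.25, -0.15 and 0.62 with 7NIT, and 0.36, -0.38 and 0.26 with 3B7N. Its groups overlapped, with a change of -0.15 and an interval from -0.85 to 0.54 (adjusted p = 0.77).

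AT1G29490 was the member of this cluster that rose. Its level was -9.03, -8.97 and -7.25 with DMSO, -9.16, -7.22 and -6.61 with 3BRO, -10.37, -8.63 and -8.22 with 7NIT, and -5.33, -6.33 and -4.84 with 3B7N. The 3B7N arrays were above the others, by 0.28 over 3BRO replicate 3 at the closest. The change was 2.92 ± 0.77 (SE), adjusted p = 0.027, and against 7NIT it was 3.57 (adjusted p = 0.010). The probe was well above background on 1 DMSO array, 2 3BRO arrays, 2 7NIT arrays and all 3B7N arrays, so 4 of the 9 values outside 3B7N are not well above background. It therefore passed the filter on dim probes through the 3B7N arrays alone, so being tested and being higher with 3B7N are linked for this locus. A second probe of the locus, well above background on 1 array, differed by 0.53. After normexp background correction the change against DMSO was 0.30 (adjusted p = 0.78) and that against 7NIT was -0.04 (adjusted p = 0.97), so the direction against 7NIT turned. The call against DMSO also ended without DMSO replicate 1 (2.61, adjusted p = 0.094), DMSO replicate 2 (2.64, 0.082), 3B7N replicate 1 (2.83, 0.071) or 3B7N replicate 3 (2.59, 0.080), and with slide as a block (0.34, 0.90).

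In the cluster from AT4G38825 to AT4G38860 changes with 3B7N lay on both sides of 0, and 1 of the 4 loci passed. SAUR14 (AT4G38840), one of the light-induced cotyledon genes and the member with the highest signal, measured 1.95, 2.10 and 1.97 with DMSO, 1.85, 1.69 and 1.92 with 3BRO, 2.01, 1.37 and 2.52 with 7NIT, and 1.00, 0.91 and 1.14 with 3B7N. The 3B7N arrays were below the other 9. SAUR14 fell by 0.99 ± 0.23 (SE) against DMSO, adjusted p = 0.017, and by 0.95 against 7NIT, adjusted p = 0.019, while the change of -0.80 against 3BRO had adjusted p = 0.064. The call against DMSO ended without DMSO replicate 2 (-0.94, adjusted p = 0.053), and that against 7NIT without 7NIT replicate 1 (-0.93, 0.066) or 7NIT replicate 3 (-0.67, 0.055). The slide block gave -1.01 against DMSO (adjusted p = 0.28) and -0.83 against 7NIT (adjusted p = 0.20).

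SAUR15 (AT4G38850), an early described auxin-induced member of the family, measured -5.48, -4.95 and -4.89 with DMSO, -5.75, -4.90 and -3.98 with 3BRO, -5.12, -5.66 and -4.92 with 7NIT, and -3.37, -4.75 and -2.62 with 3B7N. It stood above DMSO on each 3B7N array but overlapped 3BRO. Its change of 1.52 had an interval from 0.35 to 2.69 and adjusted p = 0.078, and with slide as a block the change was -0.26. SAUR13 (AT4G38825) changed by 1.19 (interval 0.34 to 2.04, adjusted p = 0.060) and SAUR16 (AT4G38860), a second light-induced cotyledon gene, by -1.21 (interval -2.31 to -0.11, adjusted p = 0.13). In the fit without a block the intervals of SAUR13 and SAUR15 lay above 0 and those of SAUR14 and SAUR16 below it. With slide as a block the change was 0.0033 for SAUR13 and -2.48 for SAUR16. On single arrays the 4 differences from the DMSO mean lay up to 3.87 apart. The difference between neighbouring loci was not itself tested.

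The 3 loci from AT2G21200 to AT2G21220 had changes below 0 with 3B7N, with a median of -0.85 against DMSO that stayed between -1.24 and -0.62 over the 22 alternative settings run. One of them passed. SAUR6 (AT2G21210) measured -0.11, -0.50 and -0.26 with DMSO, -0.45, -0.83 and -1.04 with 3BRO, 0.09, -0.78 and -0.05 with 7NIT, and -2.92, -1.46 and -1.02 with 3B7N. The 3B7N arrays were below DMSO, with replicate 1 far below the rest, and 3B7N replicate 3 was 0.01 above 3BRO replicate 3. SAUR6 fell by 1.51 ± 0.42 (SE) against DMSO, adjusted p = 0.034, and by 1.55 against 7NIT, adjusted p = 0.027. The call against DMSO ended without DMSO replicate 1 (-1.42, adjusted p = 0.10), 2 (-1.61, 0.060) or 3 (-1.49, 0.082), and without 3B7N replicate 1 (-0.95, 0.055). That against 7NIT ended without 7NIT replicate 1 (-1.39, adjusted p = 0.10) or 7NIT replicate 3 (-1.45, 0.090). The slide block ended both calls, at -1.41 against DMSO (adjusted p = 0.29) and -0.77 against 7NIT (adjusted p = 0.41), and normexp that against DMSO (-1.45, adjusted p = 0.056). SAUR7 (AT2G21200) changed by -0.85 (adjusted p = 0.14) and SAUR12 (AT2G21220) by -0.53 (adjusted p = 0.22).

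None of the 4 loci from AT3G03820 to AT3G03850 passed in limma, and 1 of the 4 had an unadjusted p under 0.05 with 3B7N against DMSO, a share near the 31.1% of all loci. SAUR26, SAUR27 and SAUR28 of this cluster have been linked to natural variation in growth responses to temperature. SAUR28 (AT3G03830), with the largest change, measured -6.04, -5.96 and -4.94 with DMSO, -6.15, -5.60 and -4.91 with 3BRO, -5.46, -5.79 and -5.38 with 7NIT, and -4.78, -4.80 and -4.27 with 3B7N. Its 3B7N arrays were above the other 9, by 0.11 over 3BRO replicate 3 at the closest. The change was 1.03 (interval 0.27 to 1.80) with adjusted p = 0.069, and it was -0.04 with slide as a block. SAUR29 (AT3G03820), with the highest signal, measured -1.19, -1.06 and -0.59 with DMSO, -1.38, -1.09 and -0.16 with 3BRO, -0.96, -1.20 and -0.68 with 7NIT, and -0.42, -0.58 and -0.36 with 3B7N. The 3B7N arrays were above the DMSO and 7NIT arrays but not above 3BRO replicate 3, and the change of 0.49 had adjusted p = 0.27. SAUR26 changed by 0.70 and SAUR27 by -0.61. The cluster's median change was 0.60, moved to 0.88 without DMSO replicate 3 and was -0.87 with slide as a block.

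The cluster from AT4G34760 to AT4G34810 had the median change closest to 0 of the clusters of 3 or more loci, -0.01 over 5 tested loci. In limma 0 of these 5 passed, and 0 had an unadjusted p under 0.05, beside 31.1% of all loci. SAUR50 (AT4G34760), a light-induced cotyledon gene with the highest signal of the cluster, measured 0.89, 0.83 and 1.43 with DMSO, 0.54, 0.60 and 1.45 with 3BRO, 0.86, 0.66 and 1.02 with 7NIT, and 0.27, 0.82 and 1.01 with 3B7N. The groups overlapped, with a change of -0.34 and an interval from -0.96 to 0.27. SAUR5 (AT4G34810), with the largest change, measured -2.62, -2.40 and -1.63 with DMSO, -2.66, -2.58 and -1.68 with 3BRO, -2.33, -2.45 and -2.21 with 7NIT, and -0.69, -2.25 and -1.65 with 3B7N. Its change of 0.69 had adjusted p = 0.26, and 3B7N replicate 1 was the highest array. SAUR2 (AT4G34780) was not tested. It was well above background on DMSO replicate 3 alone, at -3.09, and lay between -10.67 and -8.68 on the other 11 arrays. The pair SAUR51 (AT1G75580) and SAUR52 (AT1G75590) changed by -0.40 and 0.32 with 3B7N, and neither passed.

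**Figure D4:**
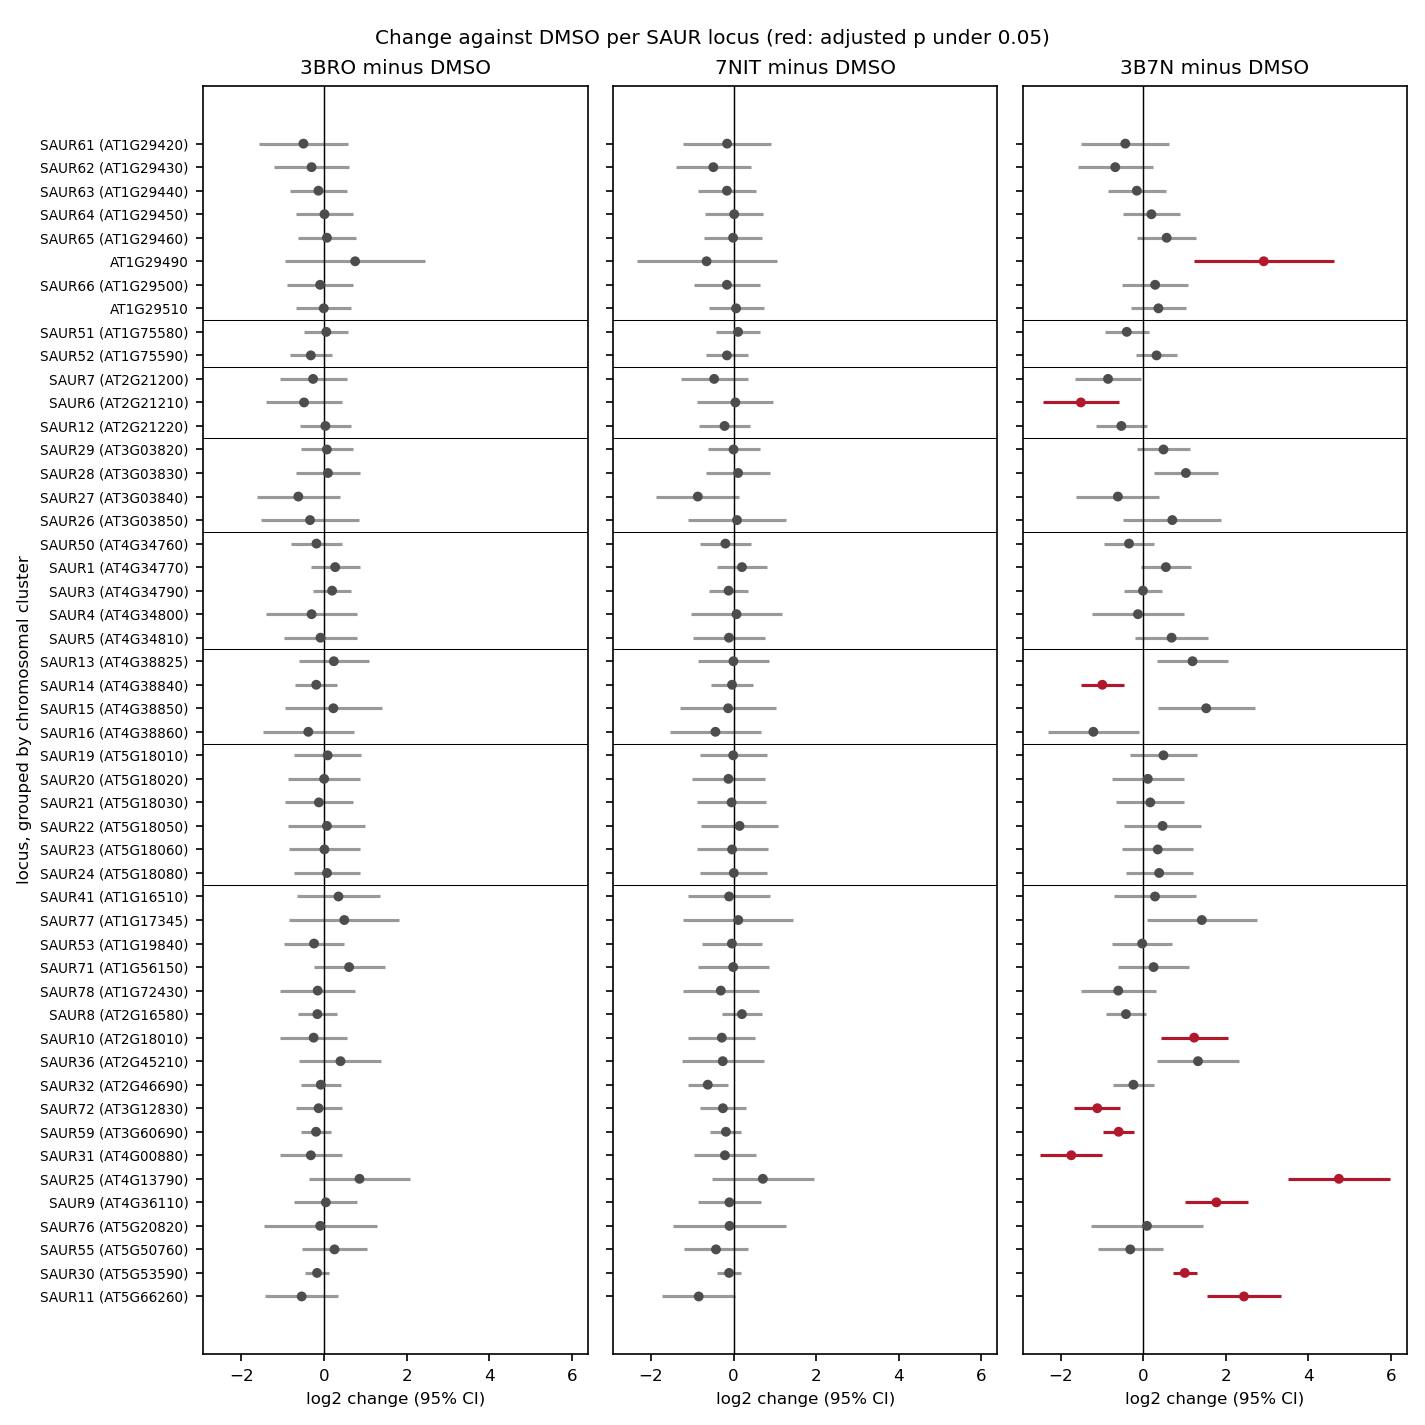
Log2 change of each tested SAUR locus against DMSO with 3BRO, 7NIT and 3B7N (horizontal axes), with points for limma estimates, bars for 95% confidence intervals and red for adjusted p under 0.05. No locus is red with 3BRO or 7NIT, and 11 are red with 3B7N, 8 of them among the single loci at the bottom.

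3B7N was also compared with each analog at the matched dose. Against 3BRO, which lacks the nitro group, 5 members rose (SAUR25, SAUR11, SAUR9, SAUR10 and SAUR30) and 2 fell (SAUR31 and SAUR72), while 2.72% of all loci rose and 4.78% fell, 7.50% in either direction. Against 7NIT, which lacks the bromo group, 7 rose and 4 fell, while 6.06% of all loci rose and 12.5% fell, 18.6% in either direction. The 7 that rose were these 5 with AT1G29490 and SAUR36, and the 4 that fell were SAUR31, SAUR72, SAUR6 and SAUR14. In the fit with slide as a block the members called were partly different ones. Against 3BRO SAUR25, SAUR11, SAUR9 and SAUR30 rose and SAUR55, not called without the block, fell, with 4.98% of all loci called. Neither SAUR31 nor SAUR72 passed there, nor did SAUR10. Against 7NIT SAUR25, SAUR11, SAUR10, SAUR30, AT1G29490 and SAUR15 rose and SAUR31 fell, with 8.28% of all loci called. SAUR15 was not called without the block, while SAUR9, SAUR36, SAUR72, SAUR6 and SAUR14 lost their calls. The count of 7 against 3BRO was 3 without 3BRO replicate 1, 4 without 3BRO replicate 2 and 4 without 3B7N replicate 3, and the count of 11 against 7NIT was 5 without 7NIT replicate 1. The 3 comparisons share the 3B7N arrays, so they are not independent of each other.

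An interaction term took the change from 3BRO to 3B7N and subtracted the change from DMSO to 7NIT, which asks whether the changes with the singly substituted indazoles add up to that with 3B7N. It passed for SAUR11 at 3.82 ± 0.57 (SE), adjusted p = 0.020, and for SAUR30 at 1.28 ± 0.19 (SE), adjusted p = 0.019, 2 of 50 members, both above 0, beside 0.659% of all loci in either direction and 0.348% above 0. The levels of both loci on every array are given above, and in both the 3B7N arrays stood above all 9 others. SAUR25 had an interaction of 3.17 with adjusted p = 0.089. The SAUR11 call ended without DMSO replicate 2 (3.83, adjusted p = 0.053), DMSO replicate 3 (3.73, 0.061), 3BRO replicate 2 (3.82, 0.064) or 7NIT replicate 1 (3.65, 0.063). The SAUR30 call ended without DMSO replicate 3 (1.21, adjusted p = 0.052), 3BRO replicate 2 (1.32, 0.061) or 7NIT replicate 3 (1.21, 0.062). The slide block left SAUR11 past the threshold (4.40, adjusted p = 0.045) and SAUR30 not (1.50, adjusted p = 0.052). With the scan day block it was SAUR30 that passed (1.47, adjusted p = 0.030) and SAUR11 that did not (3.57, adjusted p = 0.056), and after normexp neither passed, with adjusted p of 0.34 and 0.15.

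**Figure D5:**
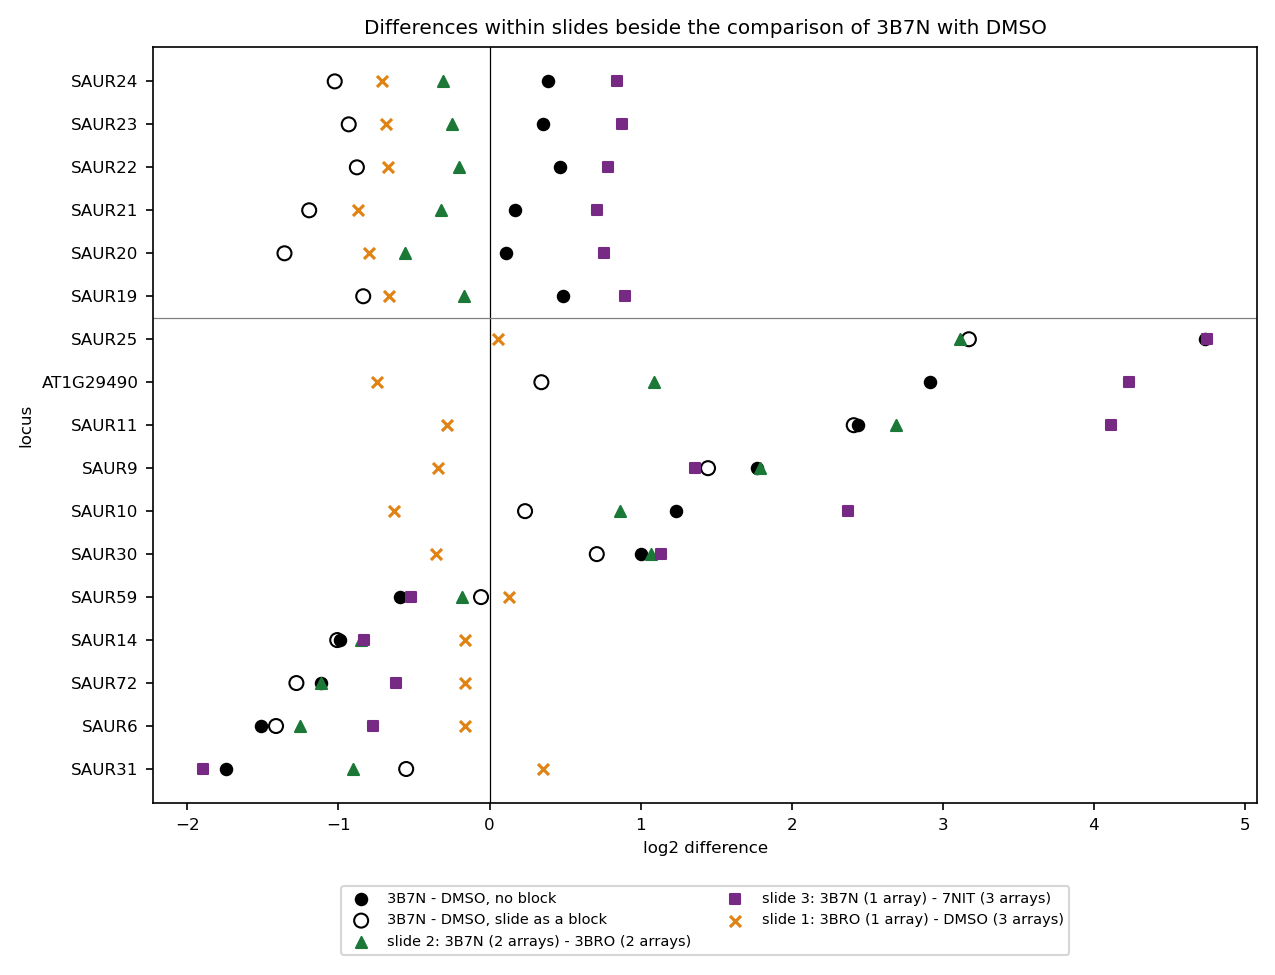
Log2 difference (horizontal axis) for the 11 members called in 3B7N against DMSO (lower block) and for SAUR19 to SAUR24 (upper block), from the fit without a block, from the fit with slide as a block, and within each slide. The 11 called members were chosen on these 3B7N arrays, and their slide 2 and slide 3 differences share the sign of the unblocked change, whereas for SAUR19 to SAUR24 slide 2 lies below 0 and slide 3 above it.

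Outside the list, 29 other loci carry a SAUR name in the RefSeq table, and 26 were tested. With 3B7N against DMSO 2 of the 26 rose, SAUR35 with a log2 change of 1.61 and AT5G01830 with 0.50. Another 5 fell, SAUR60 with a change of -2.56, SAUR37 with -1.40, SAUR74 with -1.13, SAUR69 with -1.08 and SAUR56 with -0.99. These rises and falls are from the fit without a block, and 3B7N and DMSO share no slide. Over all loci 5.49% rose and 10.2% fell. The median of the 26 was 0.04. The symbol SAUR21 stands for AT5G01830 in the RefSeq table and is a synonym of AT5G18030, the member called SAUR21 here. Loci that lie between cluster members served as a local comparison. Of 7 such loci, 0 passed with 3B7N in limma and 0 had an unadjusted p under 0.05, beside 31.1% of all loci, with changes from -0.25 to 0.47. One of the 7, AT3G03847, is itself SAUR73.

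Genes of the pathway on either side of the SAUR proteins are given against the same background of 15.7% of all loci called and 31.1% with an unadjusted p under 0.05. In limma 0 of the 6 auxin receptors, 0 of the 5 activating auxin response factors and 0 of the 9 clade D phosphatases did so in 3B7N against DMSO, and 1, 1 and 5 of them had an unadjusted p under 0.05. The phosphatases had a median change of 0.33, 8 of the 9 being above 0. Among 10 tested plasma membrane proton pumps, HA7 (also AHA7) fell by 1.29 ± 0.23 (SE), adjusted p = 0.0049, and 0 rose. Of 8 growth and light regulators, PIF3, a phytochrome-interacting factor that promotes growth in the dark, rose by 1.58 ± 0.33 (SE), adjusted p = 0.0098. HY5, a promoter of light development, changed by -0.74 with adjusted p = 0.051. The values of these lists are all from the fit without a block, where 3B7N and DMSO share no slide. With 3BRO or 7NIT against DMSO 0 of the genes of these lists passed, and 0 had an unadjusted p under 0.05.

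Markers of seedling parts moved in the same comparison. With 3B7N against DMSO 7 of 8 root markers and 8 of 8 green leaf and cotyledon markers fell, beside 10.2% of all loci. The median changes were -1.59 and -0.72. These calls are from the fit without a block, and 3B7N and DMSO share no slide. The summed linear level of the root list, relative to the 75th percentile, was 109 to 135 on DMSO arrays, 102 to 117 with 3BRO, 88.6 to 99.4 with 7NIT and 75.5 to 86.9 with 3B7N. For the green list the sums were 1065 to 1511, 1007 to 1136, 918 to 1100 and 690 to 864. The part of these shifts in the falls of SAUR14, SAUR6, SAUR31, SAUR72 and SAUR59, or in the rises, was not tested.

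The authors' deposited table of probes with corrected p-values lists 5 member probes among 1779 for 3B7N against DMSO. The folds of these probes in the authors' deposited table carry no direction and are 5.45 for SAUR11, 3.42 for SAUR9, 3.34 for SAUR31, 2.15 for SAUR72 and 2.01 for SAUR30. No member probe is among the 14 in the authors' deposited table for 7NIT. Each of these 5 loci is among the 11 called here. The others of the 11 have no probe listed there: SAUR25, which had the largest change, AT1G29490, SAUR10, SAUR6, SAUR14 and SAUR59. The reason for their absence was not tested.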

How the data were processed

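Per the submitters' processing notes, the arrays were read with Agilent Feature Extraction 10.7.3.1. The spot intensity values are the deposited processed signals, background-corrected on a linear scale per the file headers. The file of 3BRO replicate 2 holds values rounded to 3 significant digits and was used as it is. The deposited fold values (linear ratio) and corrected p-values come from the authors' own comparison, and no source used here gives the correction.

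Signals were taken to log2 and the array's 75th percentile was subtracted. Control spots and spots marked as non-uniform or population outliers were left out. To be tested, a probe had to be well above background on every array of some group, and each locus was represented by its brightest passing probe, with a value on at least 2 arrays of every group. Of the members, 46 have 1 probe and 5 have 2. RefSeq names (TAIR10.1) matched 23283 of the 23534 tested loci. The headers name an older build, so no coordinates are given.

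All 12 arrays entered 1 fit in limma 3.58.1 (lmFit and eBayes, R 4.3.3), with p-values adjusted within each of 7 comparisons. Intervals are limma's 95% intervals, and the number of arrays limits the precision. The procedure was tested on simulated data. Alternatives were normexp correction (offset 50, on the median signal because the mean signal column is not in the files used), quantile and median scaling, other filters on dim probes, the mean over probes, slide, scan day or replicate number as a block, the compared groups alone, and each array left out.

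Values of every array are printed for members called against DMSO with a log2 change of at least 1, for the member of highest signal and of largest change with 3B7N in each cluster of 3 or more loci, and for members called in the interaction. SAUR36, SAUR76, SAUR77, SAUR78 and SAUR2 were added after their values were seen. Members, clusters and companion lists were chosen with earlier results of these data known.

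Same-numbered replicates were compared by the correlation of their deviations from group means over all loci. Each of the 3 correlations was above 0.1 for DMSO with 3BRO (0.40, 0.14, 0.44) and for 3BRO with 7NIT (0.12, 0.24, 0.20), and not for the other pairs of groups, such as DMSO with 3B7N (-0.10, 0.01, 0.13).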

Additional observations from a re-analysis of the deposited data

Results flagged for a closer look

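In 2 single SAUR loci the change with 3B7N against 3BRO differed from the change with 7NIT against DMSO, by the interaction term of the limma fit. For SAUR11 (AT5G66260) the interaction was 3.82 on the log2 scale, made of 2.98 for 3B7N minus 3BRO and -0.84 for 7NIT minus DMSO. For SAUR30 (AT5G53590) it was 1.28, made of 1.17 and -0.11. No explanation of either was tested.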

How the results depend on the processing

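The counts of 0 called members in 3BRO against DMSO, 7NIT against DMSO and 7NIT against 3BRO stayed 0 under the 22 alternatives run. For 3B7N against DMSO the count of 11 was 5 under normexp, 0 with slide as a block, 0 with scan day as a block and 7 when the 2 compared groups were fitted alone, and it ran from 6 to 13 when arrays were left out. Against 3BRO the count of 7 was 1, 5, 3 and 3 under those settings and ran from 3 to 9. Against 7NIT the count of 11 was 5, 7, 13 and 8 and ran from 5 to 13. The interaction count of 2 was 0 under normexp, 1 with slide and 1 with scan day as a block, and ran from 0 to 3. Median changes of clusters against DMSO turned with slide or scan day as a block: -0.78 and -0.65 from AT1G29420 to AT1G29510, -0.87 and -0.80 from AT3G03820 to AT3G03850, -0.98 and -0.74 from AT5G18010 to AT5G18080, -0.26 and -0.27 for the single loci, and, with slide, -0.63 from AT4G38825 to AT4G38860. Normexp gave -0.26 for the pair AT1G75580 and AT1G75590 and 0.35 from AT3G03820 to AT3G03850, and quantile scaling gave 0.16 for that pair. Without an array the medians ran from 0.06 to 0.48 (AT1G29420 to AT1G29510), -0.17 to 0.05 (AT1G75580 and AT1G75590), 0.44 to 0.88 (AT3G03820 to AT3G03850), -0.03 to 0.33 (AT4G38825 to AT4G38860), 0.09 to 0.66 (AT5G18010 to AT5G18080) and 0.04 to 0.35 (single loci). Normexp moved the median of all loci by -0.13 in 3B7N against DMSO and by -0.21 in 3B7N against 7NIT. Under normexp the log2 change of AT1G29490 in 3B7N against 7NIT turned to -0.042. The cause of these shifts was not tested.

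With the replicate block, the counts were 15 for 3B7N against DMSO, 9 against 3BRO, 15 against 7NIT and 3 for the interaction, and 0 for the comparisons without 3B7N. The numbers pair DMSO with 3BRO and 3BRO with 7NIT by the correlations of their deviations, and there the block changed no call. For the other pairs of groups not all 3 correlations were above 0.1, and whether the numbers pair their samples is uncertain. DMSO with 7NIT gave 0.06, 0.25 and 0.26, and 7NIT with 3B7N gave -0.01, 0.29 and 0.26.

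Signal over background limits AT1G29490, SAUR25 and SAUR2, whose low values lie at or near background. The number of arrays a group, and slides on which no 3B7N array meets DMSO, limit the comparison of these treatments.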
